A study of Homo sapiens with 12 samples.

Results

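Kruppel-like factors are zinc finger transcription factors, and the 10 described here are KLF2, KLF3, KLF4, KLF5, KLF6, KLF7, KLF9, KLF10, KLF11 and KLF13. They were taken by gene symbol from a raw count table of 20771 genes, in all 12 RNA-seq libraries, and all 10 were among the 16515 genes with enough counts to test. EW8 and TC71 are Ewing sarcoma cell lines. In both lines used here (EW8-RRM1-KO and TC71-RRM1-KO), the endogenous RRM1 gene, which encodes the large subunit of ribonucleotide reductase, was knocked out with CRISPR/Cas9, and the cells were single-cell cloned. The RRM1 protein of all 4 groups came from a codon-optimized transgene that is expressed only with doxycycline. The 4 groups have 3 libraries each: EW8 and TC71 with doxycycline (0 h) and EW8 and TC71 after 48 hours without it (48 h). No library of cells with intact RRM1 was analysed here, and effects of doxycycline withdrawal itself cannot be told apart from those of losing RRM1.

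KLF proteins bind GC-rich and CACCC elements through zinc fingers at the C-terminus, and their N-terminal parts decide whether a target gene is activated or repressed. KLF2, KLF4, KLF5, KLF6 and KLF7 act mainly as activators. KLF3 recruits the corepressor CtBP, and KLF9, KLF10, KLF11 and KLF13 recruit the corepressor SIN3A. Several KLF genes are known as rapidly induced genes in cells exposed to serum, growth factors or stress.

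The start regions of these genes are shown first because they differ in base composition. Whether composition goes with the direction of change was not tested. RefSeq (GRCh38.p14, the hg38 build) gave 13 start sites for 8 of the 10 members, and none was matched for KLF3 and KLF10. Shown are the 250 bases before the annotated start of KLF2 (chr19:16324576-16324825, + strand), of KLF5 at the first of its 2 starts (chr13:73054726-73054975, + strand), of KLF9 (chr9:70414658-70414907, − strand) and of KLF13 (chr15:31326585-31326834, + strand). They are written 5′ to 3′ on the strand of the gene, and capitals mark the GC box GGGCGG on either strand, a site bound by SP and KLF proteins.
KLF2: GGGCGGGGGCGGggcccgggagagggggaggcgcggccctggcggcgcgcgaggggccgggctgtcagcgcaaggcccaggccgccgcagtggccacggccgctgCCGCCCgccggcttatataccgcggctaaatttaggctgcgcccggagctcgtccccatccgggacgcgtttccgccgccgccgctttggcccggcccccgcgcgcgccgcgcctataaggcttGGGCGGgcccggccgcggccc
KLF5: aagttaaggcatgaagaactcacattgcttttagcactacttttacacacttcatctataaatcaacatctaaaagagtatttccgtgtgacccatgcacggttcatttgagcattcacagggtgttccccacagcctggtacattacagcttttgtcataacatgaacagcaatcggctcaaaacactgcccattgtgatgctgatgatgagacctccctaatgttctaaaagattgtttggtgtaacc
KLF9: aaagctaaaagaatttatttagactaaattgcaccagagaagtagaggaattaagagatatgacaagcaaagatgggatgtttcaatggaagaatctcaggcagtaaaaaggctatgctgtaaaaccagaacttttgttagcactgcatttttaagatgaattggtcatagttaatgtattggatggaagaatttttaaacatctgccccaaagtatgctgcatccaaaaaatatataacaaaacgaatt
KLF13: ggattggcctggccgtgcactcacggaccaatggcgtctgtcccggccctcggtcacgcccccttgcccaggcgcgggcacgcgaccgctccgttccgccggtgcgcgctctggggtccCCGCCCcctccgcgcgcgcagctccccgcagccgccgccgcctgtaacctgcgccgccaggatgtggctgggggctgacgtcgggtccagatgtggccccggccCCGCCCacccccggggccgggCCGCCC

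The KLF2 window holds 80.0% G and C and 4 GC boxes, and the KLF13 window 78.8% and 3 GC boxes. The KLF9 window holds 32.4% G and C and no GC box, and that of the first KLF5 start 40.8% and none, while the second KLF5 start has 70.8% and 2 GC boxes. Among the other windows not shown, that of KLF4 holds 69.2% and 4 GC boxes and that of KLF6 72.4% and 2 GC boxes. Those of KLF11 hold 78.8% and 74.4%, and those of KLF7 from 41.6% to 72.0%. Over 35116 RefSeq windows of the same length, the median was 58.0% G and C, and 42.6% held a GC box. A GC box lay in 8 of the 13 windows of the members. Both strands were searched for the AP-1 element TGACTCA. It lay in none of the 13 windows, which leave out KLF3 and KLF10, and in 4.20% of all windows. With so few windows and so low a share, finding none says little. The element TGACGTCA was found once, 176 to 169 bases before the second start of KLF11, against 1.65% of all windows. A CArG box, the element bound by serum response factor, was found once, before the fourth start of KLF7, against 1.16% of all windows. CACCC was found in 6 of the 13 windows and in 54.7% of all windows, and in KLF11 it overlaps the TGACGTCA match. These are matches of letters in a short window, and gene counts do not show which start was used.

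Counts per library summed to between 18468485 and 35698991, and with no more than 3 counts in each library of both groups compared, no fold is given. Replicates differed by more than counting noise (chi-square per gene from 2.05 to 9.48 between libraries of a group). The labels do not say whether replicates were separate cultures, so that the p-values measure the spread between these libraries only. RRM1 itself had 166 to 317 counts in EW8 at 0 h against 1201 to 1514 after 48 hours, and 316 to 422 against 674 to 778 in TC71. The transgene is codon-optimized and the endogenous gene was edited in all 12 libraries, so these counts do not check the labels of time. All 8 Ewing sarcoma markers that were looked up (CD99, NKX2-2, NR0B1, PRKCB, STEAP1, LIPI, FLI1 and EWSR1) were measured, with summed levels of 1543 to 1741 CPM (counts per 1000000, with library sizes scaled by TMM factors) over all libraries. Of 4 markers of other cell types, the leukocyte marker PTPRC had 0 to 5 counts per library. The summed level of the 3 such markers that were measured (PTPRC, EPCAM and DCN) was 13.4 to 14.2 CPM at 0 h and 21.3 to 22.2 CPM after 48 hours in EW8, and 18.5 to 19.4 CPM and 28.8 to 32.8 CPM in TC71. Most of it came from DCN, a matrix proteoglycan gene, and its part in the results was not tested.

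In EW8, 6 of the 10 Kruppel-like factors were upregulated 48 hours after removal of doxycycline: KLF2, KLF4, KLF5, KLF6, KLF9 and KLF10. Up- and downregulated, or called, mean here that a fold of more than 2 came with an adjusted p of less than 0.05 (quasi-likelihood test of edgeR, Benjamini-Hochberg adjustment over all genes tested). Of all genes tested in EW8, 13.9% were called higher and 3.35% lower, and no KLF member was called lower. By the adjusted p alone, 8 members rose and KLF13 fell, against 37% of all genes that rose and 31.6% that fell. The median log2 fold change was 1.78 over the 10 members and 0.03 over all genes tested. The 10 were chosen with earlier results of these data known, so that their counts and medians do not stand for the family. Over the 4 other KLF genes tested, the median was -0.31 in EW8 and -0.22 in TC71. In TC71, 3 members were upregulated (KLF2, KLF5 and KLF10) and none was downregulated, against 3.26% of all genes called higher and 0.854% called lower. With the fold of 2 placed inside the test (glmTreat of edgeR), 0 members were called in TC71, where 3 had an unadjusted p below 0.05. By the adjusted p alone, 5 members rose and KLF7 fell in TC71, against 22.9% and 19.2% of all genes. The median log2 fold change in TC71 was 0.47 over the 9 members without KLF4, which was not measurable there, and -0.0013 over all genes. The smaller changes below are described as a rise or a fall where the adjusted p was below 0.05. The libraries of the 2 times did not overlap for 8 members that were higher and 1 that was lower in EW8 (37.9% and 33.2% of all genes), and for 7 and 1 in TC71 (25.9% and 23.7%). In bulk RNA, more cells that carry a transcript and more transcript per cell cannot be told apart.

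**Figure D1:**
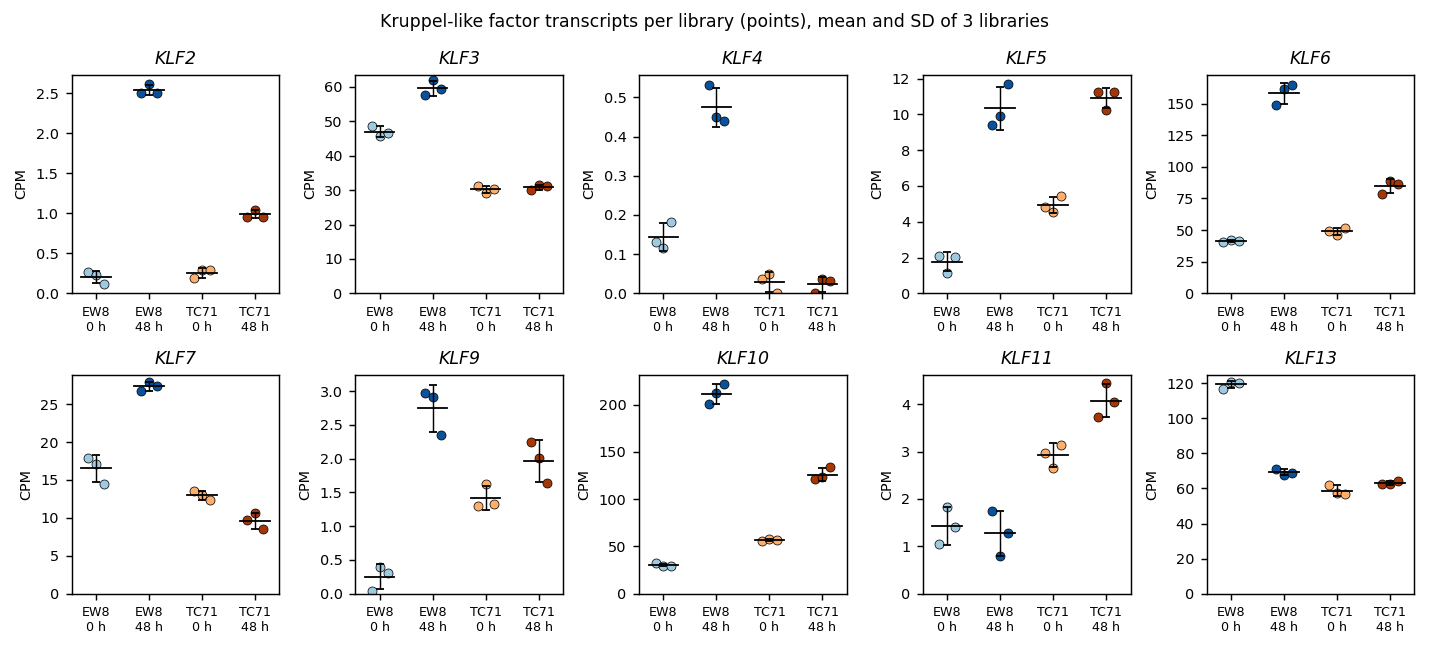
Level in CPM (vertical axis, starting at 0) of each of the 10 Kruppel-like factors in every library of EW8 and TC71 at 0 h and 48 h. Points are libraries, horizontal lines are means and bars are SD of 3 libraries. KLF10 and KLF6 reach 222 and 165 CPM in EW8 at 48 h, KLF7 moves up in EW8 and down in TC71, and KLF4 is close to 0 in every TC71 library.

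KLF10 encodes a SIN3A-dependent repressor first described as an early gene induced by TGF-beta. It had 32.0, 29.4 and 29.7 CPM in the EW8 libraries at 0 h and 201, 212 and 222 CPM at 48 h. It rose 6.97-fold, or by 2.80 on the log2 scale (standard error [SE] 0.05, adjusted p = 1.97e-30 from edgeR). In TC71, KLF10 had 56.1, 57.7 and 57.3 CPM at 0 h and 121, 124 and 134 CPM at 48 h. There it rose 2.21-fold, with a log2 fold change of 1.15 (SE 0.05, adjusted p = 2.00e-19). The groups did not overlap in either line, and the spread between libraries was small against the change. The TC71 libraries started higher and ended lower than those of EW8.

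KLF11, the closest relative of KLF10 and also described as induced by TGF-beta, passed the test in TC71 but not in EW8. It had 1.05, 1.83 and 1.40 CPM at 0 h and 1.75, 0.802 and 1.27 CPM at 48 h in EW8, and the groups overlapped. The log2 fold change was -0.14 (95% interval -0.64 to 0.36, adjusted p = 0.625). Without EW8 48 h replicate 2 the sign turned, to 0.10. In TC71, KLF11 rose from 2.98, 2.65 and 3.14 CPM to 3.74, 4.44 and 4.05 CPM, a log2 fold change of 0.47 (SE 0.16, adjusted p = 0.0154). That rise was lost without TC71 0 h replicate 2 (adjusted p = 0.0634) or TC71 48 h replicate 2 (adjusted p = 0.0546) and with DESeq2 (adjusted p = 0.0529), over a range of edgeR and DESeq2 values from 0.00934 to 0.0634. An annotated noncoding gene overlaps exons of KLF11 on the other strand, and whether the counting used strand is not given in the sources used here.

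KLF9, a SIN3A-dependent repressor known as a target of glucocorticoid and thyroid hormone receptors, was near the detection limit in EW8 at 0 h. The libraries had 1, 7 and 10 counts there and 56, 58 and 48 counts at 48 h, or 0.0438, 0.401 and 0.305 CPM against 2.98, 2.91 and 2.35 CPM. The log2 fold change was 3.45 (95% interval 2.82 to 4.08, adjusted p = 5.61e-12). In TC71, KLF9 was already at 1.30, 1.62 and 1.32 CPM at 0 h and had 2.25, 2.01 and 1.64 CPM at 48 h. The TC71 groups did not overlap, but the change of 0.47 missed the threshold (95% interval 0.03 to 0.91, adjusted p = 0.0763). Without TC71 48 h replicate 3 it passed (0.60, adjusted p = 0.0373), and the adjusted p ran from 0.0373 to 0.231 over the alternatives in edgeR and DESeq2. After 48 hours the EW8 libraries lay above those of TC71, the reverse of their order at 0 h.

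KLF13, the remaining SIN3A-dependent member and a regulator of chemokine expression in T lymphocytes, moved the other way. It had 117, 121 and 120 CPM at 0 h and 71.2, 67.6 and 68.9 CPM at 48 h in EW8. It fell by 0.78 on the log2 scale (SE 0.05, adjusted p = 1.58e-16), which is below the fold threshold of 2. In TC71 its libraries had 62.2, 57.5 and 56.6 CPM at 0 h and 62.4, 62.6 and 64.4 CPM at 48 h. The TC71 change of 0.10 missed the threshold (95% interval 0.01 to 0.20, adjusted p = 0.0834). It passed without TC71 0 h replicate 1 (0.15, adjusted p = 0.0333), with at least 10 counts in every library (adjusted p = 0.0461) and scaled to total counts (adjusted p = 0.00857), and the highest adjusted p of the edgeR alternatives was 0.297. The EW8 libraries thus came down from about the highest level of the gene in the series to near the level of both TC71 groups.

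KLF6 encodes a ubiquitous activator with tumour suppressor functions. In EW8 it had 40.8, 41.9 and 41.1 CPM at 0 h and 149, 162 and 165 CPM at 48 h. It rose 3.84-fold, with a log2 fold change of 1.94 (SE 0.05, adjusted p = 6.64e-26). In TC71 it rose from 49.2, 46.3 and 51.3 CPM to 78.8, 89.1 and 86.4 CPM, a log2 fold change of 0.79 (SE 0.05, adjusted p = 3.50e-14) that did not pass the fold threshold. All 48 h libraries lay above all 0 h libraries of the same line. The gene spans bases 3775996 to 3785281 of chromosome 10 (hg38, − strand), and no annotated exon of another gene overlaps its exons.

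KLF2, known in endothelial cells and T lymphocytes as a factor of quiescence, rose in both lines from a very low start. Its fold was the largest of the members measurable in TC71, where its interval overlapped that of KLF5. In EW8 its interval overlapped that of KLF9. The EW8 libraries had 6, 4 and 4 counts at 0 h and 47, 52 and 51 after 48 hours. These correspond to 0.205 ± 0.0735 and 2.53 ± 0.0631 CPM (SD, n = 3 libraries each). The log2 fold change was 3.69 (95% interval 3.09 to 4.28, adjusted p = 3.15e-13). In TC71, KLF2 had 5, 6 and 7 counts at 0 h and 25, 28 and 31 counts at 48 h, which correspond to 0.257 ± 0.0611 and 0.986 ± 0.0508 CPM (SD, n = 3 libraries each). The change there was 1.94 on the log2 scale (95% interval 1.29 to 2.60, adjusted p = 8.35e-06). Without EW8 0 h replicate 3 the EW8 values were 3.29 for KLF2 and 3.71 for KLF9. Neither line had overlapping groups, although KLF2 stayed among the least abundant members.

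KLF5, an activator known for promoting proliferation of intestinal crypt cells, had 2.10, 1.15 and 2.04 CPM at 0 h and 9.41, 9.93 and 11.7 CPM at 48 h in EW8. The log2 fold change was 2.49 (SE 0.14, adjusted p = 7.34e-17). In TC71 it had 4.80, 4.56 and 5.42 CPM at 0 h and 11.2, 10.3 and 11.2 CPM at 48 h, a log2 fold change of 1.14 (SE 0.11, adjusted p = 6.01e-10). The 2 lines differed at 0 h and reached similar levels at 48 h, 10.3 ± 1.20 CPM in EW8 and 10.9 ± 0.558 CPM in TC71 (SD, n = 3 libraries each). That last pair was not tested.

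KLF4, one of the factors used to reprogram somatic cells to pluripotency, was barely detected. The EW8 libraries had 3, 2 and 6 counts at 0 h and 10, 9 and 9 after 48 hours, with a log2 fold change of 1.62 (95% interval 0.64 to 2.61, adjusted p = 0.00354). In the TC71 libraries it had 1, 1 and 0 counts with doxycycline and 0, 1 and 1 without, so that no fold is given for that line. The EW8 groups did not overlap, but their means were 0.143 and 0.474 CPM, and the size of the change is known only roughly. KLF4 shares exon sequence with a noncoding gene on the other strand.

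KLF7, which is known for its role in axon outgrowth, was the only member with a change past the adjusted p in both lines and in opposite directions. In EW8 it had 17.9, 17.1 and 14.5 CPM at 0 h and 26.7, 27.9 and 27.4 CPM at 48 h. It rose there by 0.74 on the log2 scale (SE 0.08, adjusted p = 4.70e-10). In TC71, KLF7 had 13.5, 13.0 and 12.4 CPM at 0 h and 9.69, 10.6 and 8.57 CPM at 48 h. It fell by 0.44 on the log2 scale (SE 0.09, adjusted p = 1.74e-04). Neither change passed the fold threshold, and in both lines the groups did not overlap. KLF7 spans bases 207074137 to 207173856 of chromosome 2 (hg38, − strand). The noncoding gene MYOSLID and a further annotated noncoding gene overlap its exons on the other strand.

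KLF3, the CtBP-dependent repressor, changed little. In EW8 it had 48.7, 45.6 and 46.7 CPM at 0 h and 57.5, 62.0 and 59.4 CPM at 48 h, a rise of 0.34 on the log2 scale (SE 0.05, adjusted p = 5.75e-07). In TC71 it had 31.1, 29.2 and 30.3 CPM at 0 h and 30.1, 31.5 and 31.1 CPM at 48 h, and the groups overlapped. The TC71 change was 0.03 (95% interval -0.08 to 0.15, adjusted p = 0.681). The antisense gene KLF3-AS1, which overlaps exons of KLF3, had 1 to 17 counts per library.

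**Figure D2:**
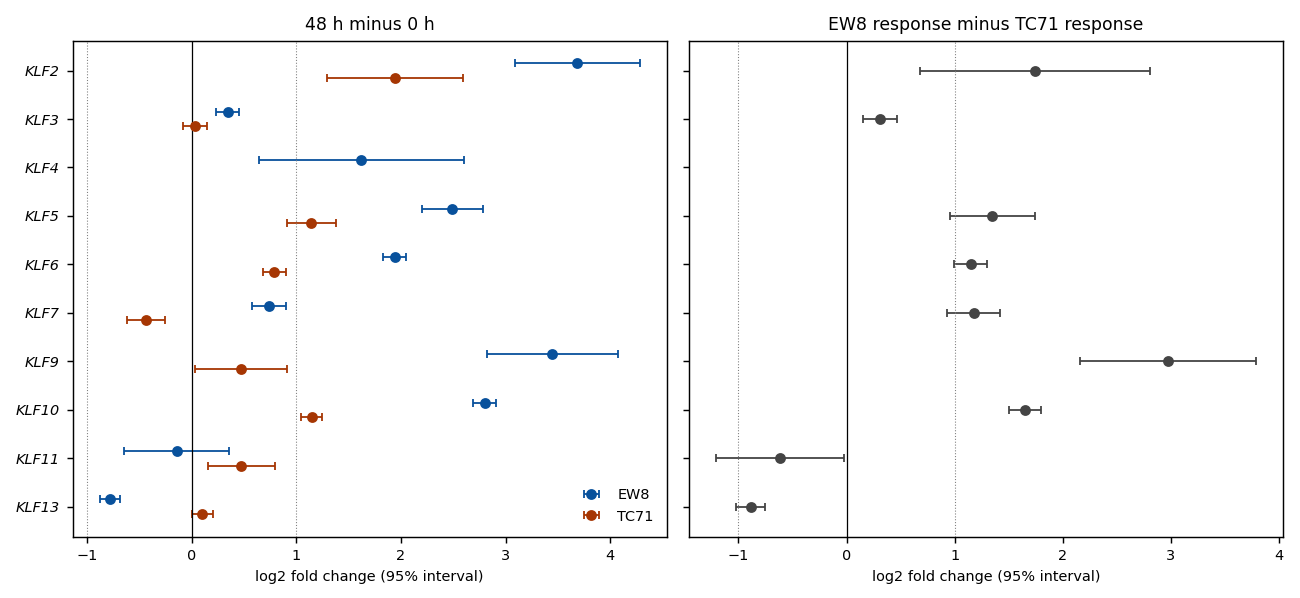
Log2 fold changes (horizontal axis) of the members with 95% intervals, at left for 48 h minus 0 h in EW8 and TC71 and at right for the EW8 response minus the TC71 response. Dotted lines mark a fold of 2, and KLF4 is left out for TC71 and for the difference because it was not measurable in TC71. KLF9 has the largest difference (2.97), KLF7 lies on opposite sides of 0 in the 2 lines, and KLF13 has a negative difference.

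Whether the lines responded differently was tested as an interaction, the EW8 response minus the TC71 response. The difference passed both thresholds for 6 members, all with the higher value in EW8: KLF2, KLF5, KLF6, KLF7, KLF9 and KLF10. Of all genes tested, 7.28% passed in this direction and 0.981% in the other. By the adjusted p alone, the difference was positive for 7 members and negative for KLF13, against 25.7% and 22.4% of all genes. It was 2.97 on the log2 scale for KLF9 (95% interval 2.16 to 3.79, adjusted p = 1.69e-07) and 1.65 for KLF10 (95% interval 1.51 to 1.80, adjusted p = 1.08e-18). The difference of 1.18 for KLF7 (95% interval 0.93 to 1.42, adjusted p = 6.85e-10) comes from changes of opposite sign. For KLF13 it was -0.89 (95% interval -1.02 to -0.75, adjusted p = 7.47e-13). For KLF11 the difference of -0.61 missed the threshold (95% interval -1.21 to -0.02, adjusted p = 0.0829), and passed it without EW8 0 h replicate 1 (adjusted p = 0.0321) or EW8 48 h replicate 1 (adjusted p = 0.0193). With the fold of 2 inside the test, 2 members had a call for the difference.

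Already at 0 h, with doxycycline, the lines differed in 9 of the 10 members by the adjusted p, 4 higher and 5 lower in EW8, against 32.8% and 32.9% of all genes. With the fold threshold, 2 members were called higher in EW8 (KLF4 and KLF13) and 3 lower (KLF5, KLF9 and KLF11), against 4.77% and 11.9% of all genes. KLF9 was lower in EW8 by the widest margin, with a log2 fold change of -2.49 (95% interval -3.19 to -1.78, adjusted p = 1.14e-07). KLF5 followed with -1.42 (adjusted p = 1.46e-09), then KLF11 with -1.07 (adjusted p = 1.71e-05) and KLF10 with -0.91 (adjusted p = 2.81e-16). KLF13 was higher in EW8 by 1.02 (adjusted p = 1.38e-19), KLF3 by 0.64 (adjusted p = 2.59e-12) and KLF7 by 0.33 (adjusted p = 9.57e-04). KLF6 was lower by 0.25 (log2 fold change -0.25, adjusted p = 2.31e-04). For KLF2 the groups overlapped (log2 fold change -0.38, 95% interval -1.35 to 0.58, adjusted p = 0.505). KLF4 had 11 counts over the 3 EW8 libraries and 2 over the 3 TC71 libraries, a ratio of 5.37 after scaling (exact 95% counting interval 1.17 to 49.9).

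The baseline calls of KLF4, KLF11 and KLF13 rest on single libraries. Without EW8 0 h replicate 3 or TC71 0 h replicate 3, the adjusted p for KLF4 was 0.107 or 0.108. Without EW8 0 h replicate 1 the log2 fold change of KLF11 was -0.90, inside the fold threshold. That of KLF13 was 0.99 without TC71 0 h replicate 2 or 3, and without replicate 3 of that group the number of members called was 3 in place of 5. Scaled to total counts or by upper quartiles, KLF13 was at 0.89 or 0.94. The comparison shares its 0 h libraries with both responses, so that a member low at 0 h in EW8 enters the response of EW8 with that same value.

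**Figure D3:**
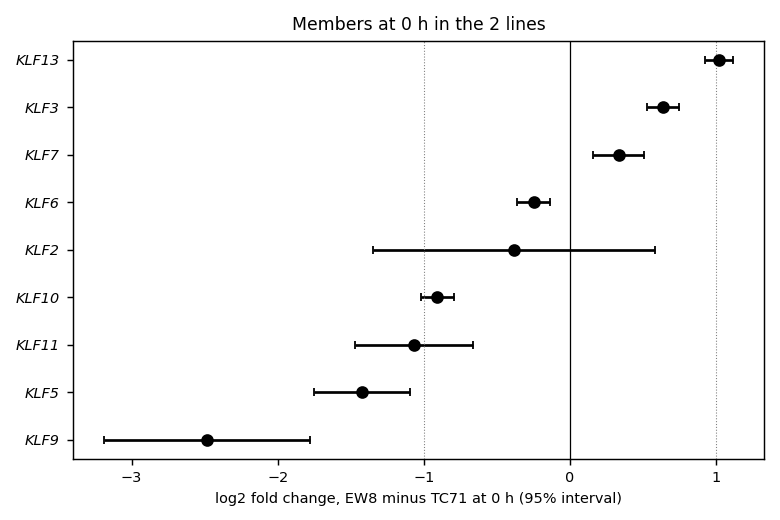
Log2 fold change between EW8 and TC71 at 0 h (horizontal axis) with 95% intervals for 9 members, ordered by value. Dotted lines mark a fold of 2, and KLF4 is left out because of its low counts. KLF9, KLF5 and KLF11 lie below -1 and KLF13 lies just above 1.

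Levels of different genes were set side by side per length, as CPM per kilobase of annotated exon. In EW8 at 0 h, KLF13 was the most abundant member with 12.6 ± 0.232 CPM per kilobase, followed by KLF10 with 7.95 ± 0.377, KLF3 with 6.94 ± 0.236 and KLF6 with 6.72 ± 0.0931 (SD, n = 3 libraries each). KLF3 and KLF6 overlapped between libraries, and KLF7, KLF5, KLF11, KLF2, KLF9 and KLF4 followed at 1.72 or less. Of these, KLF5 overlapped with KLF11, and KLF2, KLF9 and KLF4 overlapped with one another, so that their order is not fixed. At 48 h the order in EW8 was KLF10 (55.3 ± 2.76), KLF6 (25.8 ± 1.36), KLF3 (8.81 ± 0.329) and KLF13 (7.34 ± 0.195). KLF13 had moved from the first to the fourth place, although with canonical transcript lengths its libraries at 48 h overlapped those of KLF3. In TC71 the first 4 places were held by KLF10, KLF6, KLF13 and KLF3 at both times. KLF10 had 14.9 ± 0.223 CPM per kilobase at 0 h and 33.0 ± 1.74 at 48 h there. KLF7 and KLF5 could not be ranked against each other in TC71 at 0 h or in EW8 at 48 h, where their libraries overlapped.

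The table holds 15 genes of the KLF family, the 10 members and KLF1, KLF8, KLF12, KLF15 and KLF16. Summed over the 15 and per length, the family came to 55.2 to 57.6 CPM per kilobase in EW8 at 0 h and 55.7 to 56.0 in TC71 at 0 h, so that the lines started from almost the same total. At 48 h the sum was 114 to 122 in EW8 and 78.4 to 82.6 in TC71. KLF10 made up 14.2% ± 0.905 of the sum at 0 h and 46.9% ± 0.813 at 48 h in EW8, and 26.8% ± 0.467 and 41.3% ± 0.997 in TC71 (SD, n = 3 libraries each). The share of KLF13 went from 22.6% to 6.23% in EW8 and from 11.2% to 8.38% in TC71. KLF6 made up 21.8% of the sum in EW8 and 17.3% in TC71 at 48 h. KLF16 had the largest share of the 15 in EW8 at 0 h, 29.0%, against 6.96% at 48 h, and went from 26.1% to 15.8% in TC71. Shares add up to the whole and do not move independently. The 10 members made up 65.9% of the sum in EW8 and 66.8% in TC71 at 0 h, and 88.7% and 79.6% at 48 h. As these 10 were chosen with earlier results of these data known, that share does not describe the family. The sums and shares were not tested.

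**Figure D4:**
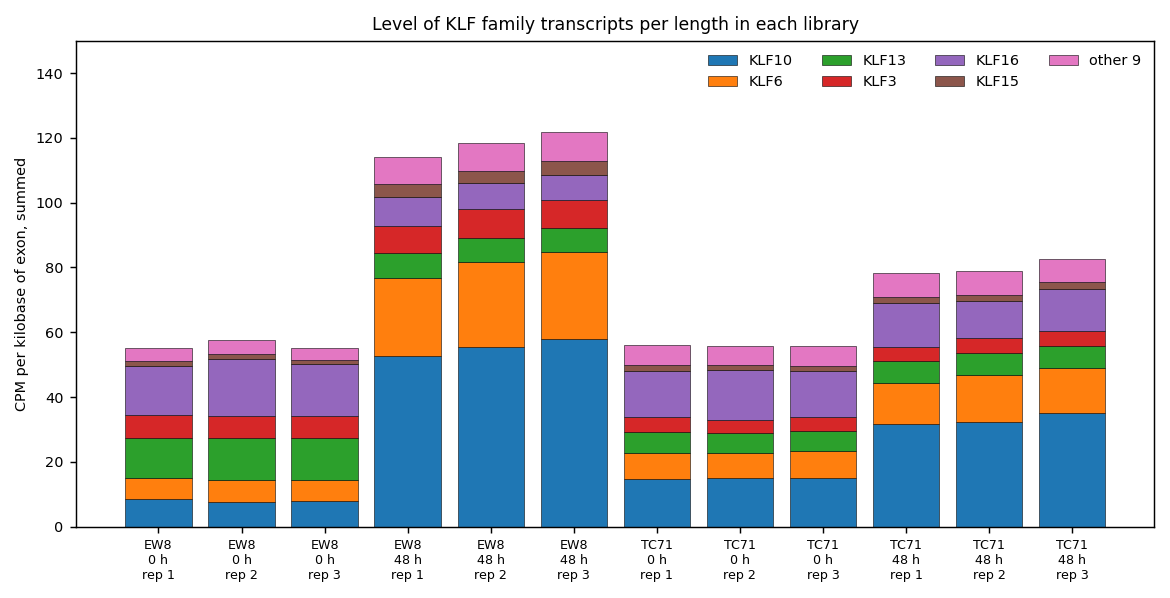
Summed level of 15 KLF family genes in CPM per kilobase of exon (vertical axis, starting at 0) in each of the 12 libraries, with bars divided by gene. The bars are near 56 in all 0 h libraries, 114 to 122 in EW8 at 48 h and 78.4 to 82.6 in TC71 at 48 h, and the KLF10 and KLF6 segments grow most.

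Of the other 8 KLF genes, KLF14, KLF17 and KLF18 were not analysed here and KLF1 had too few counts to test. KLF15, known as a metabolic regulator in muscle and liver, had 84, 76 and 121 counts at 0 h and 207, 204 and 250 counts at 48 h in EW8. It was upregulated there, with a log2 fold change of 1.53 (SE 0.11, adjusted p = 5.48e-14). In TC71 its log2 fold change was 0.14 (adjusted p = 0.344), and the interaction was called (1.39). KLF16, a SIN3A-dependent repressor, had 1022, 917 and 1552 counts in the EW8 libraries at 0 h and 498, 472 and 466 after 48 hours. In EW8 it fell by 0.98 on the log2 scale (adjusted p = 2.75e-14). In TC71 it fell by 0.21 (adjusted p = 0.00976). KLF12 fell in both lines and KLF8 in TC71 by the adjusted p, none past the fold threshold. Of 9 SP genes, which bind the same GC box, 5 were tested. SP9 was upregulated in EW8, from 8, 8 and 15 counts to 23, 34 and 21, and by the adjusted p alone SP2 rose and SP1, SP3 and SP4 fell there. In TC71 no SP gene was called, and SP1 and SP4 fell by the adjusted p. In EW8, 1 of 4 tested KLF genes and 1 of 5 SP genes were called higher, against 13.9% of all genes. By the adjusted p, 1 of the 4 and 2 of the 5 rose there, against 37%, and 2 and 3 fell, against 31.6%. In TC71, 0 rose in either list, against 22.9%, and 3 of the 4 and 2 of the 5 fell, against 19.2%. Lists of 4 and 5 genes are too small to read a difference from these shares, which was not tested.

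Genes that act before, with or after the KLF proteins were taken from hand-written lists. Their counts by the adjusted p stand against 37% of all genes that rose and 31.6% that fell in EW8, and 22.9% and 19.2% in TC71, and a list near these shares shows nothing particular to it. Of 8 corepressor and deacetylase genes, none was called in either line. The adjusted p alone gave SIN3B as the gene that rose and 6 that fell in EW8, SIN3A, CTBP1 and CTBP2 among them, and 4 that fell in TC71, with median log2 fold changes of -0.43 and -0.10, against 0.03 and -0.0013 over all genes. In the ERK5-MEF2 branch, which induces KLF2 and KLF4 in endothelial cells, none of 5 genes was called. MEF2A, MEF2C and MEF2D rose and MAPK7, which encodes ERK5, fell in EW8 by the adjusted p, and MEF2A and MEF2D rose in TC71. Of 9 genes of the TGF-beta branch, SMAD7, an inhibitor of the pathway, was upregulated in EW8 (log2 fold change 1.03, adjusted p = 5.03e-15) and none was called in TC71. In EW8, 5 of the 9 rose by the adjusted p (TGFB1, TGFB2, TGFB3, TGFBR2 and SMAD7), and 3 fell (SMAD2, SMAD3 and SMAD4), the latter close to the share of all genes. In TC71, 4 of the 5 rose and SMAD2 fell. None of 5 ubiquitin ligases of KLF proteins was called in either line. FBXW7 rose and VHL, SMURF1 and WWP1 fell in EW8 by the adjusted p, and SMURF1 and WWP1 fell in TC71.

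Of 10 genes widely described as KLF targets, 8 were tested. CDKN1A, the gene of the cell-cycle inhibitor p21 that KLF4 and KLF6 can activate, had 229, 215 and 351 counts in the EW8 libraries at 0 h and 2200, 2250 and 2367 after 48 hours. It was upregulated in EW8 (log2 fold change 3.40, adjusted p = 4.20e-24) and in TC71 (2.05, adjusted p = 1.31e-18). TAGLN, a smooth muscle gene, was upregulated in EW8 (1.44, adjusted p = 3.25e-09) and had a log2 fold change of 0.02 in TC71. No other target was called in either line. The called targets are thus 2 of 8 in EW8 and 1 of 8 in TC71, against 13.9% and 3.26% of all genes called higher. In EW8, MAOA, ENG and CCND1 also rose by the adjusted p and CCNB1 fell. In TC71, ENG and CCND1 rose and CCNB1 and MAOA fell. CDKN1A is also a target of p53, and these counts do not show which factor acted on it.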

How the data were processed

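RNA of 12 libraries (TruSeq Stranded mRNA, per the labels) was sequenced by the authors, checked with FastQC and mapped to hg38 with STAR. The deposited values are raw counts per gene, not normalized, and every listed gene has at least 21 counts in all. The counting tool, its strand setting and the annotation are not given in the sources used here. Testing used edgeR 4.0.16 under R 4.3.3 (filterByExpr over 4 groups with minimum count 10 and minimum total 15, TMM factors, robust quasi-likelihood fit over all 12 libraries, no replicate block). Standard errors are the log2 fold change divided by the root of the F statistic. The biological coefficient of variation was 4.17%. The study used DESeq2, run here as an alternative (version 1.42.0). Exon lengths and overlaps came from GENCODE release 44, and windows of start sites from RefSeq. By rule, the genes named with values were the 10 members, RRM1, called genes of the lists, and for each member the 3 genes with the most similar profile. List genes that were not called, KLF16 with its values among them, were named after their values were seen. Members and lists were chosen with earlier results of these data known. The fit was tested on simulated counts. Alternatives were other scalings, filters, tests and thresholds, each line alone, a replicate block and each library left out. Protein sequences were not used here. Figures were drawn with matplotlib 3.10.9.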

Additional observations from a re-analysis of the deposited data

Results flagged for a closer look

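The response to removal of doxycycline differed between EW8 and TC71 by a test of the difference itself (edgeR, adjusted p below 0.05) for 8 of the 10 Kruppel-like factors. On the log2 scale, the EW8 response minus the TC71 response was 1.74 for KLF2 (adjusted p = 0.00619), 0.31 for KLF3 (adjusted p = 0.00102), 1.35 for KLF5 (adjusted p = 4.91e-07) and 1.15 for KLF6 (adjusted p = 2.21e-14). It was 1.18 for KLF7, 2.97 for KLF9, 1.65 for KLF10 and -0.89 for KLF13. Of all genes tested, 25.7% had a positive and 22.4% a negative difference of this kind. KLF7 is the only one of the 8 that rose in one line and fell in the other by the adjusted p. For KLF2 and KLF9 the 0 h counts in EW8 were 10 or fewer in every library.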

How the results depend on the processing

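The numbers of members called were 6 (EW8), 3 (TC71), 6 (difference between the responses) and 5 (0 h). With at least 10 counts in every library, which leaves out KLF2, KLF4 and KLF9, they were 3 in EW8, 2 in TC71, 4 for the difference and 2 at 0 h, where KLF13 (0.997) also missed the fold threshold. Without a fold threshold they were 6 in TC71 and 9 at 0 h. With the fold of 2 inside the test (edgeR's glmTreat) they were 5 in EW8, 0 in TC71, 2 for the difference and 2 at 0 h. In TC71 3 members then had an unadjusted p below 0.05, and DESeq2 with the usual thresholds called 3. With each library left out, the counts stayed at 6, 3 and 6, and ran from 3 to 5 at 0 h. The replicate block left the counts at 6, 3, 6 and 5. Same-numbered libraries of the 2 times did not deviate together (correlations from -0.31 to 0.01). Deviations were centred within groups of 3 libraries, so these correlations cannot settle whether the numbers pair the samples. Over all genes the block moved the calls from 2848 to 2856 in EW8 and from 680 to 663 in TC71. Of 806 single member values, 792 kept their direction and their side of the call by both thresholds. With single libraries left out, KLF11 in EW8 ran from -0.42 to 0.10, positive without EW8 48 h replicate 2, and the fitted value of KLF4 in TC71, which rests on 0 or 1 counts a library and is not a measured fold, from -0.73 to 0.23, positive without TC71 0 h replicate 1 (0.05), TC71 0 h replicate 2 (0.20) or TC71 48 h replicate 1 (0.23). No sign turned under another scaling, filter or tool. Scaling to total counts moved the median of all genes to 0.16 in EW8 and -0.14 at 0 h. At 0 h KLF10 then passed the fold threshold (-1.04) and KLF13 did not (0.89), while relative to that median they were at -0.90 and 1.03. DESeq2 did not call KLF4 at 0 h (adjusted p = 0.0806). With canonical transcript lengths, 178 of 180 pairs of members kept their order. Counts at or under 10 limit KLF2, KLF4 and KLF9.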

Other observations

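For each member, the tested genes with the most similar profile over the 12 libraries were those with the smallest root mean square difference of log2 CPM after each gene was centred on its own mean. For KLF10 they were DNAJB5, which encodes a chaperone cofactor (0.136), PCDH8 (0.143) and TUFT1 (0.173), against an SD of 1.12 of KLF10 itself. For KLF6 they were UTRN, the gene of utrophin (0.0710), DKK2, a Wnt antagonist gene (0.0842), and the pseudogene FRG2FP (0.0879). The profile of KLF2 was closest to those of PPP1R15A, the stress gene GADD34 (0.275), CLU (0.301) and AC016831.1 (0.305), and that of KLF5 to NDRG1 (0.204), PTPN7 (0.209) and GPR137C (0.242). KLF7 was closest to WARS1, a tRNA synthetase gene (0.125), PCDH17 (0.136) and SIX4 (0.148). For KLF13 the genes were DNAJC14 (0.0942), GSR (0.107) and EMB (0.108). KLF3 was closest to OSBPL8 (0.0404), PCYT1A (0.0419) and ZNF292 (0.0431), and KLF11 to RASSF4 (0.240), ROM1 (0.256) and AC124283.2 (0.275). KLF9 was closest to the pseudogene TLE1P1 (0.385), SHISA4 (0.412) and LINC01134 (0.467). For KLF4 the genes were AC010735.2 (0.478), AKAP12 (0.497) and AC108749.1 (0.513). KLF4 had 0 or 1 counts in every TC71 library, so that its profile there is set largely by the 0.5 counts added before taking logs. These are descriptions of 4 groups of 3 libraries, in which many genes share a profile.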
